A study of Homo sapiens with 2 samples.

Results

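The genes described here are those of the small RNA machinery, the proteins that make, load and edit microRNAs and that also carry transfected small interfering RNAs (siRNAs). They were chosen by name: AGO1, AGO2, AGO3, AGO4, DICER1, DROSHA, DGCR8, XPO5, TARBP2 and ADAR. Every spot (feature) of the array table annotated to 1 of these 10 symbols alone was taken. That gave 18 of 45015 features, and 14 of the 18 were measured, meaning that the table held a value other than 0 on both arrays. Among all features 60.5% were measured.

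The cells were COLO320, a human colorectal cancer line with neuroendocrine features. They had been transfected with 100 nM of CDX2 siRNA #6 for 1 array and of CDX2 siRNA #8 for the other, both against CDX2, a homeobox factor of the intestinal lineage. The control cells had received a non-targeting siRNA, also at 100 nM, and cells were harvested 24 h after their medium had been renewed. Each two-colour Agilent array held CDX2 siRNA RNA in Cy5 and control RNA in Cy3, so ratios above 1 mean more transcript with CDX2 siRNA. The dyes were not swapped on either array, so a dye effect on a feature cannot be told apart from one of CDX2 siRNA. The 2 siRNAs, 1 array each, served as replicates (n = 2). Both channels had thus been transfected, and a response shared by all siRNAs would cancel in the ratio. No untransfected cells were analysed here, so the values say nothing of transfection itself.

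In the nucleus, DROSHA and its partner DGCR8 cut a hairpin out of a primary microRNA transcript. XPO5 carries the hairpin to the cytoplasm, where DICER1, with TARBP2, trims it to a short duplex. An Argonaute protein (AGO1 to AGO4) keeps 1 strand and uses it to find target mRNAs. A synthetic siRNA duplex enters at the loading step, and AGO2 is the human Argonaute best known for slicing a matched target. ADAR changes adenosine to inosine in double-stranded RNA.

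Ratios were available for 27230 features, and their median log2 ratio was -0.11 on both arrays. A member ratio near -0.1 was therefore at the middle of the table, and values after centring each array on its median are given beside the raw ones where an array changed sign. CDX2 itself was lower with both siRNAs. Its first feature stood at 32.2% of control with siRNA 6 and 36.5% with siRNA 8, and its other feature at 42.5% and 39.0%. The table holds ratios and no signal levels, so the presence of marker transcripts could not be checked. How near background either channel lay where a ratio was large could not be checked either. Ratios existed for 4 of 6 epithelial markers (EPCAM, KRT8, KRT18 and KRT20), for 3 of 6 neuroendocrine markers and for 2 of 4 markers of other cell types. The number of arrays limits the precision.

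Most of the machinery stayed close to the middle of the table with both siRNAs. Of the 14 measured features, 12 differed from control by less than 1.5-fold on both arrays, as did 61.9% of all features. The other 2 were at least 1.5-fold away in the same direction on both arrays, against 27.4% of all features. Exceptions were AGO4, at 23.8% of control, and a single feature of ADAR, which was 65.5-fold higher. Each feature was tested against 0 with limma, fitted over all 27230 features and adjusted by Benjamini-Hochberg, and an adjusted p under 0.05 counted as passed. By that measure 1 member feature was higher and 2 were lower, while 11 did not pass. Among all features 11.5% were higher and 25.1% were lower, 36.5% in all, against 21.4% of the member features. The test leaves out the spread of the control RNA, which had no sample of its own. The labels give no repeat culture of either siRNA and do not say whether the 2 transfections were independent experiments, so p-values reflect the spread of these 2 arrays alone.

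**Figure D1:**
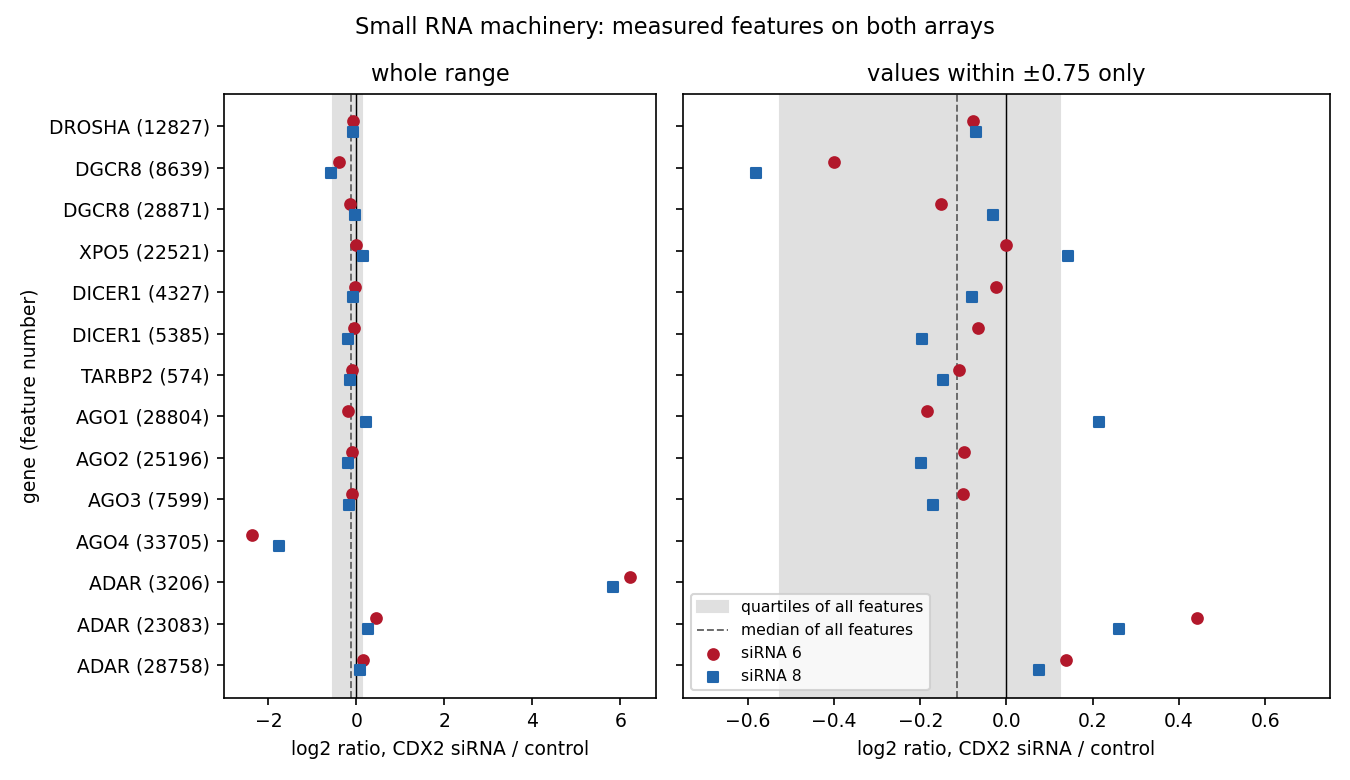
Log2 ratio (CDX2 siRNA over control, horizontal axis) of the 14 measured features, 1 row each with its gene and feature number; circles are siRNA 6, squares are siRNA 8, the grey band spans the quartiles of all features and the dashed line is their median. The left panel has the whole range, with AGO4 near -2 and 1 ADAR feature near 6, and the right panel enlarges values within 0.75 of 0, where the other 12 features lie.

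The nuclear step was covered by 3 features. DROSHA, the nuclear RNase III enzyme, had a log2 ratio of -0.08 with siRNA 6 and -0.07 with siRNA 8. Its mean was -0.07 ± 0.00388 (SD, n = 2), and its 95% interval in limma ran from 79.6% to 113% of control (adjusted p = 0.546). After centring it lay above 0, at 0.04 with siRNA 6 and 0.03 with siRNA 8. DROSHA was thus at the middle of the table on both arrays.

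DGCR8, the RNA-binding partner of DROSHA, was represented by 2 features of the same accession, NM_022720, which differed. One of them, feature 8639, had a log2 ratio of -0.40 with siRNA 6 and -0.58 with siRNA 8. Its mean was -0.49 ± 0.128 (SD, n = 2), or 71.2% of control, and it passed (limma, adjusted p = 0.0334). The other DGCR8 feature, 28871, stood at -0.15 with siRNA 6 and -0.03 with siRNA 8, a mean of 93.9% of control that did not pass (limma, adjusted p = 0.491). After centring this feature lay at -0.04 with siRNA 6 and 0.07 with siRNA 8. The fall therefore appeared in 1 of the 2 features. Averaged, the 2 DGCR8 features gave a mean log2 ratio of -0.29 ± 0.0213 (SD, n = 2), and the gene did not pass (limma, adjusted p = 0.0653). Feature 8639 also no longer passed once each array was centred, at a mean of -0.38 (limma, adjusted p = 0.0612).

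XPO5, the exporter of hairpins, had a log2 ratio of -0.0012 with siRNA 6 and 0.14 with siRNA 8. Its mean of 105% of control did not pass (limma, adjusted p = 0.598), and the interval ran from 86.6% to 127%. The siRNA 6 array lay just below 0 and the siRNA 8 array above it, and after centring XPO5 was above 0 on both, at 0.11 with siRNA 6 and 0.25 with siRNA 8.

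DICER1, the cytoplasmic RNase III enzyme, had 2 measured features of NM_177438. Feature 4327 of DICER1 stood at 98.3% of control with siRNA 6 and 94.6% with siRNA 8. Feature 5385 stood at 95.5% with siRNA 6 and 87.3% with siRNA 8. Neither feature passed (limma, adjusted p = 0.674 and 0.340). On the raw scale both were slightly below control on both arrays, but after centring DICER1 feature 4327 stood at 0.09 with siRNA 6 and 0.03 with siRNA 8, and feature 5385 at 0.05 and -0.09. A further DICER1 feature, of AA417913, was listed at 0 on both arrays. TARBP2, which binds the duplex together with DICER1, was at 92.7% of control with siRNA 6 and 90.3% with siRNA 8 (mean log2 -0.13 ± 0.0266, SD, n = 2; limma, adjusted p = 0.324). After centring TARBP2 was at 0.0050 with siRNA 6 and -0.04 with siRNA 8. For both genes the ratios lay within 0.2 log2 of the median of their array.

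Of the 4 Argonautes, AGO4 fell and the other 3 did not pass. AGO4, feature 33705 of NM_017629, had a log2 ratio of -2.37 with siRNA 6 and -1.77 with siRNA 8. This is 19.3% and 29.4% of control, with a mean of -2.07 ± 0.427 (SD, n = 2), or 4.20-fold lower (limma, adjusted p = 0.00481, lower on 2 of 2 arrays). The 95% interval ran from 16.4% to 34.5% of control. AGO4 lay at percentile 1.78 of the means of all features. A second AGO4 feature, of AB046787, was listed at 0 on both arrays, so the fall rests on 1 feature. When zeros were kept as ratios of 0, that feature had the same value and did not pass (limma, adjusted p = 0.205).

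AGO2, the slicing Argonaute, stood at 93.4% of control with siRNA 6 and 87.2% with siRNA 8, a mean log2 ratio of -0.15 ± 0.0701 (SD, n = 2; limma, adjusted p = 0.281). Its 95% interval ran from 75.1% to 108% of control. AGO3, which like AGO2 rests on 1 feature, stood at 93.2% with siRNA 6 and 88.8% with siRNA 8 (limma, adjusted p = 0.305), with an interval from 76.0% to 109%. On the raw scale both genes were below control on both arrays, and after centring AGO2 was at 0.02 with siRNA 6 and -0.09 with siRNA 8, and AGO3 at 0.01 and -0.07. A further feature annotated to AGO2 together with another gene was not used.

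AGO1 was the member whose arrays pointed furthest apart among those near 0. Its measured feature, 28804, stood at 88.1% of control with siRNA 6 and 116% with siRNA 8, so that the mean of 101% describes neither array (limma, adjusted p = 0.937). The second AGO1 feature, of the same accession NM_012199, was listed at 0 on both arrays. AGO1, AGO2, AGO3 and AGO4 are paralogues of similar sequence. Probe sequences were not used here, so how well each probe tells them apart was not tested.

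ADAR, the editing enzyme, had features that gave very different answers. Feature 3206 of ADAR, annotated to X98562, had a log2 ratio of 6.22 with siRNA 6 and 5.84 with siRNA 8. Its mean of 6.03 ± 0.270 (SD, n = 2) passed (limma, adjusted p = 0.000577) and lay at percentile 99.4 of all features. The 2 features annotated to NM_001111, a RefSeq mRNA of ADAR, stood far below that. Feature 23083 of ADAR was at 136% of control with siRNA 6 and 120% with siRNA 8 (limma, adjusted p = 0.0707). Feature 28758 of ADAR was at 110% with siRNA 6 and 105% with siRNA 8 (limma, adjusted p = 0.404). The remaining ADAR feature, of AA085955, was listed at 0 on both arrays.

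All 3 measured ADAR features were above control on both arrays, and 1 of them alone had a large ratio. With each array centred, feature 23083 also passed, at a mean log2 of 0.46 (limma, adjusted p = 0.0403). The mean over the 3 features, 4.48-fold higher, passed (limma, adjusted p = 0.00115), but with RefSeq mRNA features alone the gene stood at a mean log2 of 0.23 and did not pass (limma, adjusted p = 0.123). With the median feature it was at 0.35 (limma, adjusted p = 0.0597). The call for ADAR as a gene therefore rests on feature 3206.

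AGO4 and ADAR are the members with a feature far from 0, ADAR through 1 of its 3 measured features. Both lie on chromosome 1, as do AGO1 and AGO3. The sequences before the starts of AGO4 and ADAR are shown because CDX2, a DNA-binding factor, was the knocked-down gene. They are the 250 bases before a RefSeq start (GRCh38.p14), read on the gene's strand. For AGO4 the window is chr1:35807766-35808015 on the plus strand. For ADAR, which has several starts, it is the window chr1:154608798-154609047 on the minus strand. That window was picked because it is the only member window with TTTATG. Capitals mark TTTATG, 1 form of the core of the CDX2 binding motif and the only form searched for.
AGO4: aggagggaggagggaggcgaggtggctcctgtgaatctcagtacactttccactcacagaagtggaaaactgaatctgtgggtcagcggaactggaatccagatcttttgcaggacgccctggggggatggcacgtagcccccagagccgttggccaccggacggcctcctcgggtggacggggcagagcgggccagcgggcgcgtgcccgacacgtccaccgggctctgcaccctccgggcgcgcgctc
ADAR: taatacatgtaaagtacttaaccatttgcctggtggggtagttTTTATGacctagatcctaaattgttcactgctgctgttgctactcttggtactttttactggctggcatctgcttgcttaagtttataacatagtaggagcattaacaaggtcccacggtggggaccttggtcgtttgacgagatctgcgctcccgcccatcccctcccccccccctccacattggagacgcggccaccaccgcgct

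Windows of 9 members, all but AGO2, were searched on both strands, 17 in all, since ADAR, TARBP2 and DICER1 have several. Some windows of ADAR and of DICER1 overlap, so the 17 are not all separate sequences. TTTATG was found in 1 of the 17, against 9.64% of 35116 windows of all genes. The AGO4 window above held none. By base composition the 2 windows differed, with 66.4% G and C for AGO4 and 50.4% for ADAR, against a median of 58% for all windows. Other forms of the CDX2 motif were not searched for, so a window without TTTATG may still hold one. A match is a run of letters and not a measured site.

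AGO4, AGO1 and AGO3 follow each other along chromosome 1 in the RefSeq table (GRCh38.p14), so their ratios were set beside those of their neighbours. Of the 6 protein-coding genes before AGO4, 5 had a ratio, all 5 were below 0 on both arrays and 3 passed as lower in the fit of gene means (limma). They were C1orf216 (log2 -1.53 with siRNA 6 and -1.24 with siRNA 8), NCDN, a neuronal cytoplasmic protein (-0.86 and -0.60), and PSMB2, a proteasome subunit (-0.71 and -0.56). CLSPN, a replication checkpoint protein next to AGO4, stood at -0.25 with siRNA 6 and -1.14 with siRNA 8 and did not pass (limma, adjusted p = 0.0936). Of the 6 genes after AGO3, 4 had a ratio and 1 passed, THRAP3, a splicing-associated protein, which was lower (-0.61 and -0.97). The share of all genes that passed as lower was 28.6%, and the difference between the sides was not tested.

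**Figure D2:**
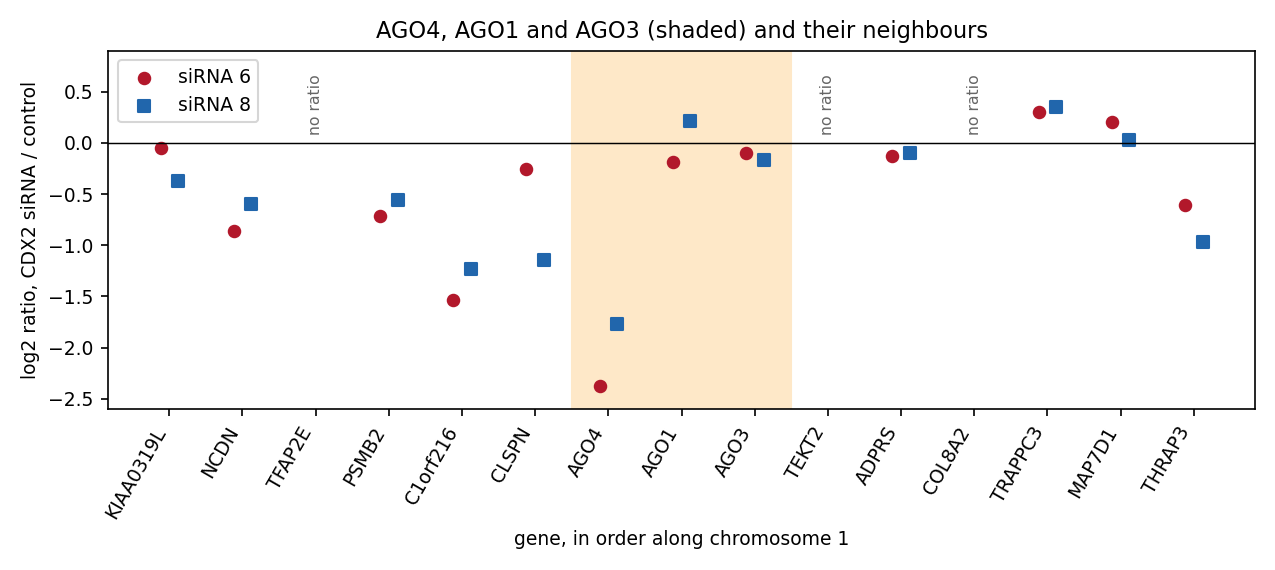
Log2 ratio of gene means (CDX2 siRNA over control, vertical axis) for AGO4, AGO1, AGO3 and 6 protein-coding genes on each side, in their order along chromosome 1; circles are siRNA 6 and squares siRNA 8, and genes without a ratio on both arrays are marked. AGO4 is the lowest on both arrays, and AGO1 and AGO3 lie near 0.

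The 2 siRNAs could be compared feature by feature, as a description, since each had 1 array. The absolute difference between siRNA 6 and siRNA 8 had a median of 0.12 log2 over the 14 member features and 0.16 over all features. AGO4 had the widest gap, -0.60 (siRNA 6 minus siRNA 8), at percentile 92.4 of all features, and DROSHA the narrowest, -0.0055, at percentile 1.98. AGO1 followed AGO4 with a gap of -0.40, and ADAR feature 3206 had one of 0.38. For scale, repeat features of 1 accession on the same array had a median SD of 0.0726 with siRNA 6 and 0.0798 with siRNA 8, over 173 accessions with 10 or more features. Of the members, 9 features were below 0 on both arrays and 3 were above 0 on both. The other 2 (AGO1 and XPO5) changed sign between the siRNAs, as did 15.3% of all features. After centring each array on its median, 2 member features were below 0 on both arrays, 6 were above 0 on both and 6 changed sign. Control RNA is the denominator of both ratios, and whether it was the same preparation is not stated.

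**Figure D3:**
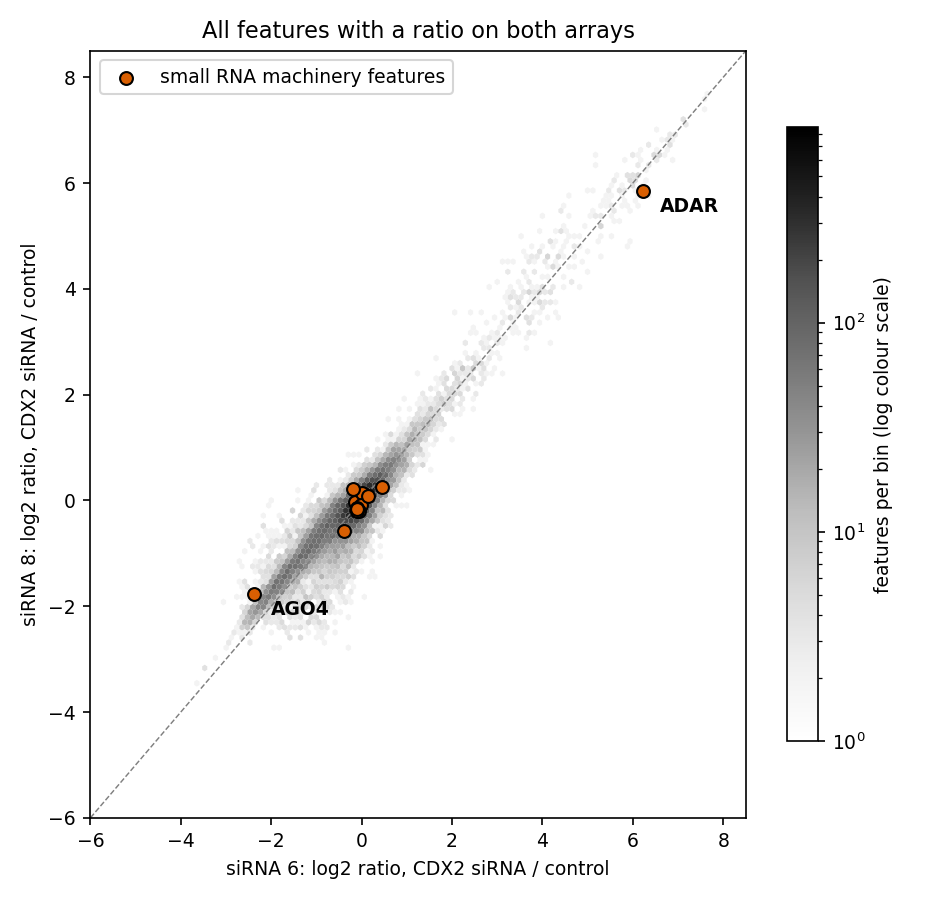
Log2 ratio with siRNA 6 (horizontal axis) and siRNA 8 (vertical axis) for all 27230 measured features, in grey with darker bins holding more features, and the 14 member features as orange points; the dashed line marks equal ratios. AGO4 lies among the low features and 1 ADAR feature among the highest, and the other 12 points overlap the dense centre.

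The members were then set beside 103 other genes of small RNA pathways, listed by role, of which 97 were on the array and 79 had a ratio. In the fit of gene means 3 of the 79 rose and 19 fell (limma), 27.8% in all, against 40.7% of 12842 genes, 12.1% higher and 28.6% lower. The 10 members gave 1 higher and 1 lower in that fit. With each array centred, 6 of the 79 were higher and 13 lower, against 1963 higher and 2933 lower of 12842 genes. Of all genes that passed, 59.9% were then lower, against 70.2% without centring. The median log2 ratio was -0.08 for the 79 genes and -0.11 for the 10 members, against -0.13 for all genes.

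Genes of hairpin processing, export and dicing lay near 0. Of 13 nuclear processing genes with a ratio, DROSHA and DGCR8 included, 1 passed: SAFB2, a scaffold attachment factor that aids hairpin processing, had a log2 ratio of -0.30 with siRNA 6 and -0.38 with siRNA 8 (limma, adjusted p = 0.0492). This is 7.69% of the group, against 40.7% of all genes. An unadjusted p under 0.05 in limma was found for 4 of the 13, against 6539 of 12842 genes. Means of the 13 ranged from -0.34 to 0.12. None of 5 export genes and none of 3 dicing genes passed (limma, with 0 and 0 at an unadjusted p under 0.05), and their means ranged from -0.04 to 0.17 and from -0.13 to -0.03. RAN, the GTPase that drives export with XPO5, stood at -0.01 with siRNA 6 and 0.10 with siRNA 8. PRKRA, a partner of DICER1 alongside TARBP2, stood at -0.0030 and -0.05. Among 13 genes of Argonaute loading, AGO4 was the 1 that passed, and the chaperones HSP90AA1 (-0.05 and -0.25) and HSP90AB1 (0.03 and -0.14) did not.

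Among genes that act after Argonaute the share that passed was close to that of all genes. Of 32 silencing effectors with a ratio, 12 fell and 1 rose, 40.6% in all against 40.7%, and their median was -0.18. CNOT9, a subunit of the CCR4-NOT deadenylase complex, was 4.21-fold lower (log2 -2.13 with siRNA 6 and -2.01 with siRNA 8; limma, adjusted p = 0.00108). FXR2, an RNA-binding protein of the fragile X family, was 2.02-fold lower (-1.01 on each array). DCP2, the decapping enzyme, was 1.87-fold lower as a mean of 2 features that differed, at -1.91 and 0.10. AJUBA, a LIM-domain protein that binds Argonautes, was 1.93-fold higher (1.18 and 0.71; limma, adjusted p = 0.0131). The scaffold CNOT1 of the CCR4-NOT complex stood at -0.05 with siRNA 6 and -0.11 with siRNA 8 and did not pass (limma, adjusted p = 0.488). CNOT9, FXR2 and AJUBA were each measured by 1 feature.

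Relatives of ADAR and other binders of double-stranded RNA numbered 10 with a ratio, of which 2 were higher and 2 lower. Their share that passed, 40%, was near the 40.7% of all genes, and 1 of the 2 higher was ADAR, whose gene call rests on feature 3206. Beside ADAR itself, ADAD2, a testis relative of ADAR, rose 2.56-fold (log2 1.40 with siRNA 6 and 1.32 with siRNA 8), and ADAD1, another one, fell 1.94-fold (-0.99 and -0.93). ADAD2 and ADAD1 were each measured by 1 feature. STRBP, a spermatid RNA-binding protein, fell 1.59-fold. ADARB1, the second catalytically active ADAR enzyme, stood at 0.31 with siRNA 6 and 0.24 with siRNA 8 and did not pass (limma, adjusted p = 0.0768). EIF2AK2, the kinase PKR that senses double-stranded RNA, stood at 0.06 and -0.15.

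In the group of microRNA tailing and turnover 1 of 10 rose and 3 fell, a share of 40% that was near the 40.7% of all genes. LIN28A, which blocks the processing of let-7, was 28.4-fold higher through 1 feature (log2 4.97 with siRNA 6 and 4.68 with siRNA 8; limma, adjusted p = 0.000281). TUT7, which adds uridines to hairpins, fell 1.81-fold, with features at -1.32 and -0.40. ERI1, an exonuclease, fell 1.53-fold, with features at -1.08 and -0.15, and TENT4B, a terminal nucleotidyltransferase, fell 1.46-fold. Of 16 PIWI pathway genes on the array, which serve the germ line, 13 had no ratio on both arrays. TDRKH, a Tudor protein of that pathway, fell 3.07-fold, with its 2 features at -2.38 and -0.86.

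**Figure D4:**
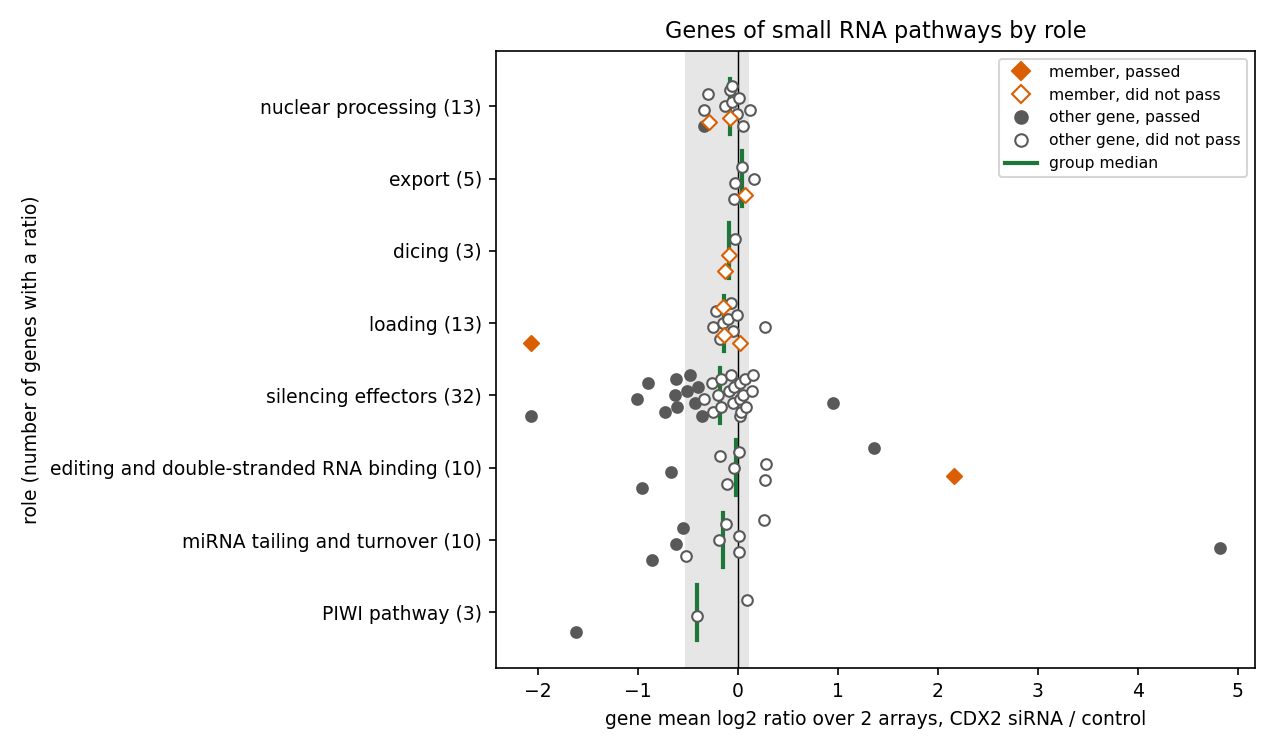
Mean log2 ratio over both arrays (CDX2 siRNA over control, horizontal axis) of each gene with a ratio, in 8 roles with the number of genes in brackets; diamonds are members, circles other genes, filled where the gene passed in limma, green bars are group medians and the grey band spans the quartiles of all genes. Processing, export and dicing genes lie within 0.4 of 0, while LIN28A lies near 5 and AGO4 and CNOT9 near -2.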

How the data were processed

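RNA of COLO320 cells given either of 2 CDX2 siRNAs was hybridised against control siRNA RNA on 2 two-colour Agilent arrays, per the labels. The authors deposited log10 ratios of Cy5 over Cy3. The base is read from the tool, Agilent Feature Extraction 9.5.3, per the submitters' processing notes, since no source used here writes it. The background and dye correction are likewise not given. Exact zeros (16311 features on both arrays) were read as not measured, which no source states. Values were converted to log2 and used as deposited. Of 45015 features, 31332 had 1 gene in the platform annotation, 93 several and 13590 none, and 0 symbols changed through RefSeq. No source used here names a genome build for the array.

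Features, and gene means of measured features, were tested against 0 with limma 3.58.1 in R 4.3.3 (intercept alone, eBayes, Benjamini-Hochberg), with 1 residual degree of freedom, to which the prior added 2.53 for features and 2.87 for genes. Intervals are limma's 95% moderated intervals, unadjusted. The fit was also run on simulated data drawn from its own prior, which does not test the calls made here. Tables and figures used Python 3.11.15, pandas 2.3.3 and matplotlib 3.10.9.

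The members and lists were chosen with earlier results of these data known. All members are named, and of each list up to 4 other genes past the threshold with the largest smaller absolute ratio. RAN, PRKRA, HSP90AA1, HSP90AB1, CNOT1, ADARB1, EIF2AK2 and the neighbours of AGO4 were named outside that rule, after their values were seen. Alternatives covered centring, quantile normalization, the prior, exact zeros, a fold of 1.2 in limma's treat, features of 10-fold or more, the log base and the rule for features of a gene or accession.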

Additional observations from a re-analysis of the deposited data

How the results depend on the processing

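AGO4 fell and ADAR feature 3206 rose under every alternative in which they entered the fit, but with exact zeros kept as ratios of 0 neither passed in limma (adjusted p = 0.205 and 0.120). In that setting 0 member features, 0 member genes and 0 of the other listed genes were higher and 0 were lower, with 1 member feature higher and 3 lower, 1 member gene higher and 4 lower, and 5 other listed genes higher and 16 lower, at an unadjusted p under 0.05. It adds features without spread, and the prior fell to 0.325 degrees of freedom. Of all 45015 features 0 were then higher and 0 lower in limma. At an unadjusted p under 0.05 in limma stood 10458 of these features and 5218 of 18334 genes. With each array centred, 2 member features were higher and 1 was lower, against 4013 and 5822 of all 27230 features. Other listed genes that were higher numbered 6 in that setting, against 1963 of 12842 genes. With a fold of 1.2 in limma's treat, 1 member feature and 8 other listed genes were lower. Among all features 5112 of 27230 were lower in that setting, and among all genes 2500 of 12842. With the features of an accession averaged, 1 member feature was lower, as DGCR8 then did not pass. Of all averaged values 5748 of 20687 were lower. Without features of 10-fold or more, 0 member features and 0 member genes were higher (limma, 1 and 0 at an unadjusted p under 0.05), since that setting removes ADAR feature 3206. Among all features left, 2328 of 26340 were higher, and among all genes left, 1211 of 12523. Member genes higher were also 0 with the median feature, with RefSeq mRNA features and with the feature nearest 0 (limma, 1, 0 and 0 at an unadjusted p under 0.05). Among all genes 1467 of 12842, 1341 of 11805 and 1198 of 12842 were higher in those settings, in the same order. With the feature nearest 0 the other listed genes that were lower numbered 10, against 2394 of 12842 genes. Signs turned for members near 0: after centring, DROSHA stood at 0.0356, DICER1 at 0.0179 as a gene and 0.0575 for feature 4327, and DGCR8 feature 28871 at 0.0189. With 1 array left out in turn, AGO1 ran from -0.183 to 0.215 and XPO5 from -0.00118 to 0.143. If the deposited values were in base 2, every ratio would be smaller by the same factor, with AGO4 at -0.62 and ADAR feature 3206 at 1.82, and the calls would not change. No paired analysis was possible because there is 1 group with 1 array for each siRNA.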

Other observations

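The 3 human TNRC6 proteins bind Argonautes and recruit the deadenylases, and their transcripts were looked at after the values were seen. All 3 passed as lower as gene means, as did 28.6% of all genes, whose median was -0.13. TNRC6A stood at log2 -0.42 with siRNA 6 and -0.37 with siRNA 8, TNRC6B at -0.40 and -0.46, and TNRC6C at -0.42 and -0.30 (limma, adjusted p = 0.0312, 0.0261 and 0.0443). Their features differed, from -1.01 to 0.0036 for TNRC6A, from -0.80 to -0.22 for TNRC6B and from -0.86 to 0.14 for TNRC6C. With each array centred on its median none of the 3 passed (limma, adjusted p = 0.0687, 0.0572 and 0.100), and with the feature nearest 0 TNRC6A and TNRC6C stood above 0.

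Host transcripts of microRNAs, the substrates of DROSHA and DGCR8, were taken by symbol after the member values were seen. Of 26 on the array 13 had a ratio, of which 5 rose and 4 fell (limma), where 12.1% of all genes rose and 28.6% fell, with a median log2 ratio of 0.01. MIR4697HG stood at 6.854 with siRNA 6 and 7.005 with siRNA 8, MIR9-1HG at 2.99 and 3.30, and MIR23AHG at 1.22 and 1.09. MIR210HG stood at -2.59 with siRNA 6 and -1.81 with siRNA 8, and MIR924HG at -1.99 and -1.83. MIR17HG, the host of the miR-17 to miR-92 cluster, stood at -0.49 and -0.13 and did not pass (limma, adjusted p = 0.129). MIR4697HG, MIR9-1HG, MIR23AHG and MIR210HG each rested on 1 of 2 features, as the other had no ratio on both arrays, and MIR924HG was measured by 1 feature.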
